A study of Homo sapiens with 4 samples.

Results

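The cancer-testis antigen families were taken as all probe sets assigned to 1 gene whose symbol begins with MAGEA, MAGEB, MAGEC, GAGE, PAGE, XAGE, SPANX, CTAG or CSAG, or consists of SSX and digits. This gave 36 probe sets for 30 genes, out of 54613 probe sets on the array and 19775 genes named by 1 probe set or more. A probe set is the group of short oligonucleotides whose signals the array combines into 1 value. Of the 36, 34 belonged to genes on the X chromosome. CTAGE1 and CTAGE11P, which lie elsewhere, entered through the first letters of their symbols and are no relatives of the CTAG genes, and SPANXA2-OT1 is a transcript that overlaps a SPANX gene. No probe set assigned to a single CSAG gene was on the array.

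The 4 arrays came from UM-UC-3 cells, an established line from a human bladder cancer. The control cells carried GFP and the experimental cells GFP-RhoGDI2, a fusion of GFP with the product of ARHGDIB, which the series title calls a metastasis suppressor gene. Both were stable transfectants selected with puromycin, sorted for fluorescence and harvested in log phase growth. There were 2 arrays per group: preparation A of both groups was made at 1 time and preparation B at another. The labels give neither the promoter of the transgenes nor the number of clones in a sorted population. Nor do they say that the cells were transfected anew for each preparation. The p-values therefore rest on how far the difference between the lines varied between these preparations. A difference between the lines when they were made cannot be told apart from one due to RhoGDI2. The free-text description of the GFP-RhoGDI2 samples speaks of the control vector, against all their other labels.

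Cancer-testis antigens are proteins of male germ cells and, in part, of placenta. In most other adult tissues their genes are kept silent, largely through methylation of CpG dinucleotides in their promoters, and in many tumours some become active again; their peptides can then be shown to T cells. The MAGE proteins share a domain through which they bind RING-type ubiquitin ligases, the SPANX proteins are associated with the nucleus of sperm, and the SSX proteins are repressors of transcription known from the fusion gene of synovial sarcoma.

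The promoters of 4 MAGE genes measured at a clear level are shown first, since they carry a common stretch before the annotated start of transcription. A RefSeq promoter, 250 bases before to 50 bases after an annotated start (build GRCh38.p14), was found for 23 of the 30 genes and for 6 of the 9 genes that entered the test, 32 windows in all. MAGEA1, MAGEA10 and XAGE-4 were not matched, and the matched window of XAGE2 is not printed. In the 4 MAGE windows below, read 5′ to 3′ on the strand of the gene, capitals mark the run GGATGTG. The MAGEA4 window is the first of 5 annotated starts and the MAGEA12 window the first of 2.
MAGEC2 (chrX:142205241-142205540, minus strand): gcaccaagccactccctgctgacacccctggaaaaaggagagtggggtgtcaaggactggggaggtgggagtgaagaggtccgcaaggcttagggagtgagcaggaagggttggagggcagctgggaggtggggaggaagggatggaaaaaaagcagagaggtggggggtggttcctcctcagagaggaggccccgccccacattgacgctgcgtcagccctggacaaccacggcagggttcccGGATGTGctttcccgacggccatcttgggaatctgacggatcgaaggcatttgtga
MAGEA4 (chrX:151912224-151912523, plus strand): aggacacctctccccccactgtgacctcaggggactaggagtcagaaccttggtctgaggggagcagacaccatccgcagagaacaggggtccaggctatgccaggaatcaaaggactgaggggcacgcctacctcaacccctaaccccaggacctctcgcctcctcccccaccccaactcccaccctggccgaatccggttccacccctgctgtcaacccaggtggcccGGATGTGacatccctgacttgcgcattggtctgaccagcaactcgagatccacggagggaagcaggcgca
MAGEA12 (chrX:152733507-152733806, plus strand): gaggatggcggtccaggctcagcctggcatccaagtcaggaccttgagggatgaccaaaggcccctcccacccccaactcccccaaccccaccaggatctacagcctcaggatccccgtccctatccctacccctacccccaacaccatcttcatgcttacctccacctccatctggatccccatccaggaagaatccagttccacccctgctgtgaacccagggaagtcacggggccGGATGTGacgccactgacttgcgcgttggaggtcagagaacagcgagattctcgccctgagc
MAGEA6 (chrX:152769640-152769939, minus strand): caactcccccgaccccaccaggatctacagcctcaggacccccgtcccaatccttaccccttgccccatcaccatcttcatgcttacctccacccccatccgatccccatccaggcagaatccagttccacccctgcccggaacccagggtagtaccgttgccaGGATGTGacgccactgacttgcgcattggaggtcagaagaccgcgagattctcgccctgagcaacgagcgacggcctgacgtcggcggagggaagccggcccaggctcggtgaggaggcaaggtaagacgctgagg

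The run GGATGTG lies 6 bases before the annotated start in MAGEC2, 20 bases before it in MAGEA4, 12 in MAGEA12 and 86 in MAGEA6. It was chosen after the sequences had been read, and was searched on both strands; 4.29% of the 35116 promoters of the table hold it. It was also found in 5 of the 17 members with a promoter and a mean under the median of all probe sets, namely MAGEA8, MAGEA11, MAGEB1, MAGEB2 and MAGEC1, so these MAGE genes share it with the tested ones. The MAGEA12 and MAGEA6 windows were 89.4% identical over 227 aligned columns, against 61.2% over 237 columns for MAGEA4 and MAGEA6. The Ets core GGAA, which occurs in 95.5% of all promoters on 1 strand or the other, was in 22 of the 23 genes and missing from SPANXB1. The E2F6 motif GCGGGA was in 4 of the 23 (26.9% of all promoters), of which XAGE2 alone was tested, and the E box CACGTG was in 5 (7.26% of all promoters), of which none was tested. The windows of tested members held 9 to 19 CG dinucleotides, against a median of 14 over all promoters. The SPANXB1 window is shown because this gene had the largest difference and its window lacks both GGATGTG and GGAA; capitals mark its 9 CG dinucleotides.
SPANXB1 (chrX:141002344-141002643, plus strand): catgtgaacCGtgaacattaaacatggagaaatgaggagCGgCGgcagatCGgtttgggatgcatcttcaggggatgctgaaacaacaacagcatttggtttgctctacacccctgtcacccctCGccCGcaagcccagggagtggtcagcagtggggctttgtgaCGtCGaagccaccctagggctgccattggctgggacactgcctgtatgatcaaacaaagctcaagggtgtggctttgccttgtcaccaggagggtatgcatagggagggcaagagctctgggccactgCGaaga

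Values are log2 expression after RMA, the authors' summary of each probe set, and every difference is GFP-RhoGDI2 minus GFP on that scale. The array medians ran from 4.624 to 4.647, and ARHGDIB, the introduced gene, was higher in the arrays labelled GFP-RhoGDI2: the probe set with its highest mean read 6.51 and 6.27 in GFP A and B and 11.94 and 11.58 in GFP-RhoGDI2 A and B. A further ARHGDIB probe set differed by 0.94 (adjusted p = 0.00794) and another by -0.02 (0.953), with opposite signs in the preparations. A probe set was tested where its mean over the 4 arrays reached the median of that mean, 4.637. Of the 36 member probe sets, 9 reached it, each for a different gene: MAGEA1, MAGEA4, MAGEA6, MAGEA10, MAGEA12, MAGEC2, SPANXB1, XAGE2 and XAGE-4. A level under it was not shown to be above background.

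In the GFP-RhoGDI2 line SPANXB1, MAGEC2, MAGEA4 and MAGEA10 fell. These are 4 of the 9 tested members, and 0 rose; over all 27307 tested probe sets 3.01% were called lower and 4.63% higher, 7.64% in all (limma with preparation as a block, adjusted p under 0.05 over all tested probe sets). By the rule of at least 2-fold lower with the same sign in both preparations, 1 member was called, against 0.249% of all tested probe sets. At an unadjusted p under 0.05, 7 members were lower and 0 higher, against 13.3% and 13.4% of all tested probe sets. The 9 tested members had a median difference of -0.49, with -0.33 in preparation A and -0.61 in preparation B, beside -0.0103 over all tested probe sets. In 7 of the 9, both GFP-RhoGDI2 arrays lay below both GFP arrays, an order seen in 27.2% of all tested probe sets. The reverse order, seen in 25%, occurred in 0. SPANXB1 is in each of these lower counts. It passed the filter only through its GFP arrays, and a member that passes in this way can only come out lower. With 2 arrays a group and 1 residual degree of freedom, the standard errors rest mainly on variances pooled over probe sets. Cells that no longer express a gene and less RNA per cell cannot be told apart in such bulk samples.

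**Figure D1:**
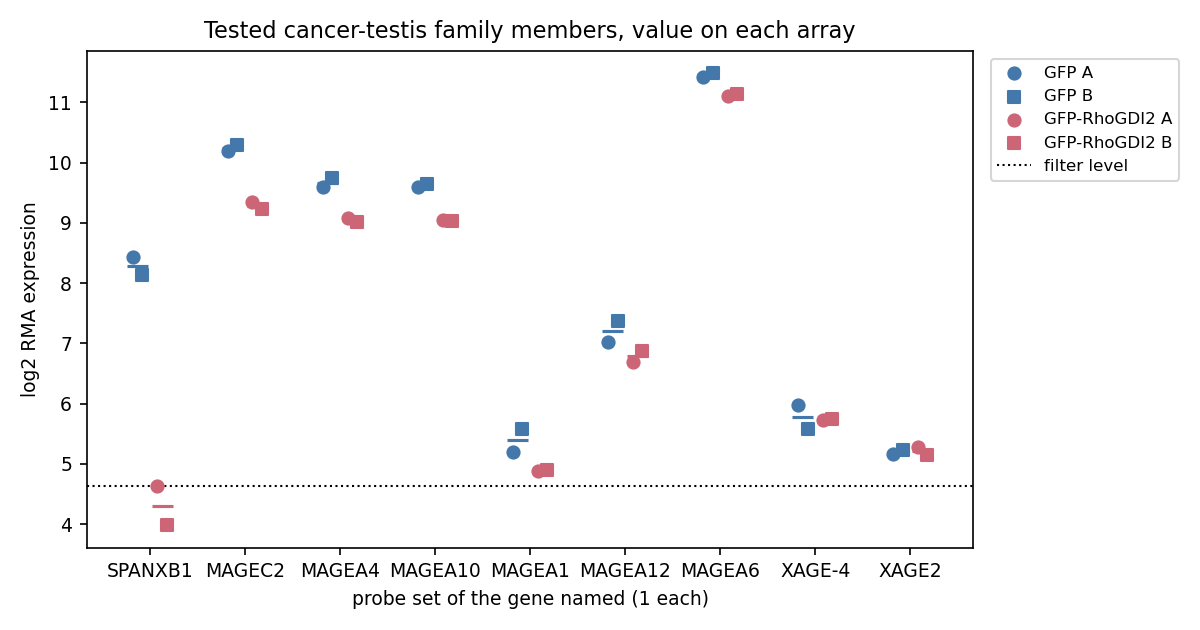
Log2 RMA expression of the 9 tested members on each array. Circles are preparation A, squares preparation B, short lines the group means and the dotted line the filter level of 4.637. Both GFP-RhoGDI2 points lie below both GFP points in SPANXB1, MAGEC2 and the 5 MAGEA genes, and the points overlap in XAGE-4 and XAGE2.

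SPANXB1, a member of the sperm protein family associated with the nucleus on the X chromosome, had the lowest difference of all 27307 tested probe sets. It read 8.43 and 8.14 in GFP A and B, and 4.63 and 3.98 in GFP-RhoGDI2 A and B. The control arrays were thus far above the filter level and the GFP-RhoGDI2 arrays below it. The difference was -3.98 (SE 0.117, adjusted p = 1.64e-04), with -3.80 in preparation A and -4.15 in B. Because the lower level is not shown to be above background, the size of this fall is uncertain.

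The array carries further SPANX probe sets, each assigned to several SPANX genes, which are given here by family and not by gene. The probe set assigned to 4 SPANX genes read 9.24 and 8.89 in GFP A and B and 5.62 and 5.50 in GFP-RhoGDI2 A and B, a difference of -3.504 (SE 0.104, adjusted p = 1.64e-04). A probe set for 3 SPANX genes read 8.41 and 8.28 against 6.94 and 6.70, a difference of -1.52 (SE 0.0944, adjusted p = 0.00139). A probe set for 2 SPANX genes read 7.45 and 7.13 against 5.64 and 5.67, a difference of -1.63 (SE 0.118, adjusted p = 0.00232). SPANX transcripts are nearly alike, and which of them each probe set detects was not tested. On these 3 probe sets both GFP-RhoGDI2 arrays stayed above the filter level. SPANXA2-OT1 was under the filter on all arrays, between 2.95 and 3.26.

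MAGEC2, whose product binds and activates the ubiquitin ligase TRIM28, had the second largest fall among the members. It read 10.20 and 10.29 in GFP A and B and 9.34 and 9.23 in GFP-RhoGDI2 A and B, so the groups were separated by much more than the gap between replicates. The difference was -0.96 (SE 0.102, adjusted p = 0.00789), or 1.95-fold, and it was -0.86 in preparation A and -1.07 in B. It ranked 77 from the lowest of all tested probe sets. The tested MAGEC2 probe set has an identifier ending in _s_at. A further MAGEC2 probe set, ending in _at, disagreed: it stayed between 3.49 and 3.69 on all 4 arrays, under the filter, with a difference of -0.07. MAGEC1 read 4.26 and 4.63 in GFP A and B and 4.36 and 4.06 in GFP-RhoGDI2 A and B, and MAGEC3 ran from 2.95 to 3.47; both were under the filter and their groups overlapped.

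The MAGEA genes are the classical tumour antigens of the family, and 5 of the 7 measured by a single-gene probe set were tested. MAGEA4 read 9.59 and 9.74 in GFP A and B and 9.09 and 9.01 in GFP-RhoGDI2 A and B. It fell by 0.62 (SE 0.103, adjusted p = 0.0273), which is 1.53-fold, with -0.50 in preparation A and -0.73 in B. MAGEA10 read 9.59 and 9.65 in GFP A and B and 9.05 and 9.04 in GFP-RhoGDI2 A and B. It fell by 0.57 (SE 0.093, adjusted p = 0.0251), or 1.49-fold, and the preparations gave nearly the same difference, -0.54 and -0.61. With any 1 array left out and no block, where the lone array of a group is taken to vary like the other group, MAGEA10 was at -0.60 without GFP A (adjusted p = 0.0718), -0.55 without GFP B (0.0872), -0.58 without GFP-RhoGDI2 A (0.116) and -0.57 without GFP-RhoGDI2 B (0.134). MAGEA4 kept its call without GFP A (-0.69, adjusted p = 0.0487) and lost it otherwise, at -0.54 without GFP B (adjusted p = 0.0922), -0.65 without GFP-RhoGDI2 A (0.102) and -0.58 without GFP-RhoGDI2 B (0.144).

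The other 3 tested MAGEA genes were lower on both GFP-RhoGDI2 arrays than on either GFP array but missed the threshold. MAGEA1, the first human tumour antigen of this kind to be cloned, read 5.20 and 5.58 in GFP A and B and 4.89 and 4.91 in GFP-RhoGDI2 A and B. Its difference was -0.49 (SE 0.119, adjusted p = 0.0658), with -0.31 in preparation A and -0.67 in B, so the preparations differed by more than for MAGEA10. MAGEA12 read 7.02 and 7.38 in GFP A and B and 6.69 and 6.88 in GFP-RhoGDI2 A and B, a difference of -0.42 (SE 0.0985, adjusted p = 0.0627). MAGEA6, whose product is known to direct TRIM28 against AMPK, read 11.43 and 11.48 in GFP A and B and 11.10 and 11.14 in GFP-RhoGDI2 A and B, a difference of -0.33 (SE 0.0918, adjusted p = 0.0876). The gap was nearly the same in both preparations, -0.33 and -0.34. The probe sets of MAGEA1, MAGEA6 and MAGEA12 carry identifiers ending in _x_at, which mark probes that can bind other transcripts, and transcripts of this family are much alike, so these are uncertain as single-gene values.

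MAGEA1 was called with an intensity trend in the variance (adjusted p = 0.0302), with arrays centred on their medians (0.0300) and, at -0.68, without GFP A and the block (0.0489). MAGEA12 was called with the trend (adjusted p = 0.0121) and the centring (0.0351). MAGEA6 was called with the trend (adjusted p = 2.88e-04) and among probe sets above the upper quartile (0.0190). These settings also called more of all probe sets lower. The trend called 2786 of 27307 lower and the centring 1522, against 821 as reported. Above the upper quartile 1722 of 13654 were called lower. A probe set assigned to 2 MAGEA genes read 11.50 and 11.51 in GFP A and B and 11.27 and 11.21 in GFP-RhoGDI2 A and B, a difference of -0.27 (SE 0.0929, adjusted p = 0.141). Another assigned to 2 MAGEA genes ran from 5.12 to 5.26 and differed by -0.05 (adjusted p = 0.790). MAGEA8 (3.25 to 3.62) and MAGEA11 (3.08 to 3.51), whose product is a coregulator of the androgen receptor, stayed under the filter with overlapping groups. By suffix, 3 of the 5 tested _at probe sets, the 1 tested _s_at probe set and 0 of the 3 tested _x_at probe sets were called.

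**Figure D2:**
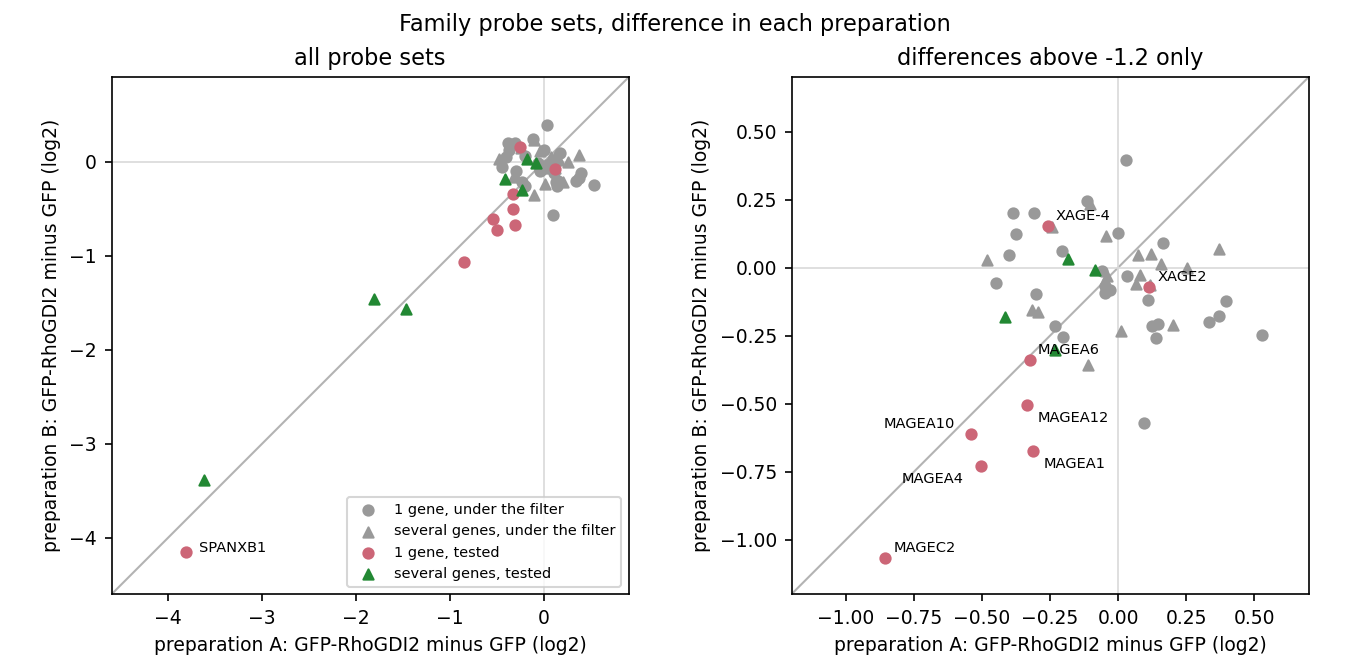
Difference between GFP-RhoGDI2 and GFP (log2) in preparation A, horizontal, against preparation B, vertical, for all probe sets of the families; the right panel enlarges those above -1.2. Circles are the 36 probe sets with 1 gene and triangles the 26 with several genes of the same family, grey where under the filter. SPANXB1 (-3.80 and -4.15) and the 3 tested SPANX triangles lie far down the diagonal, followed by MAGEC2 (-0.86 and -1.07).

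The XAGE genes, a family expressed in testis and placenta, gave no call in either direction. XAGE2 read 5.17 and 5.23 in GFP A and B and 5.28 and 5.16 in GFP-RhoGDI2 A and B, a difference of 0.02 (95% interval -0.23 to 0.27; adjusted p = 0.918). XAGE-4, which RefSeq lists as a transcribed pseudogene, read 5.98 and 5.59 in GFP A and B and 5.72 and 5.74 in GFP-RhoGDI2 A and B, a difference of -0.05 (95% interval -0.36 to 0.26; adjusted p = 0.828). In both the groups overlapped and the preparations had opposite signs. XAGE3 was under the filter, between 3.89 and 3.99.

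The other 27 member probe sets were under the filter, with values from 2.55 to 4.704 on single arrays. They comprised all 7 MAGEB, 5 SSX and 3 PAGE probe sets, both CTAG2 and both CTAGE probe sets and the GAGE1 probe set, besides those named above. Their differences ran from -0.25 (PAGE4, a PAGE gene of prostate and placenta) to 0.21 (PAGE1), with a median of -0.06, beside -0.0194 over all probe sets under the filter. The preparations had opposite signs in 17 of the 27, were both lower in 8 and both higher in 2. Both GFP-RhoGDI2 arrays lay below both GFP arrays in 5 of the 27, against 20.6% of all probe sets under the filter, and above them in 1, against 15.1%. PAGE5 alone had an array over the filter level: it read 4.57 and 4.48 in GFP A and B and 4.704 and 4.22 in GFP-RhoGDI2 A and B. CTAG2, a relative of the antigen NY-ESO-1, ran from 3.26 to 3.54 on its _at probe set and from 3.77 to 4.30 on its _x_at probe set. Without a filter the same number of members was called, 4 lower and 0 higher, where 0.861% of all probe sets were called lower and 1.78% higher.

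Of the 26 probe sets assigned to several genes of 1 of these families, 7 were tested. The 3 SPANX probe sets above were called lower and 0 were called higher, against 3.01% and 4.63% of all tested probe sets. Since SPANX transcripts are nearly alike, these 3 may repeat the SPANXB1 signal. The other tested ones were the 2 MAGEA probe sets given above and 2 for CTAGE genes, with differences of -0.07 and -0.30 (adjusted p = 0.689 and 0.142). All several-gene probe sets for GAGE, SSX, CSAG, XAGE and the CTAG1 genes were under the filter.

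SPANXB1 lies next to MAGEC2 in the order of tested genes along the X chromosome, and the 5 tested MAGEA genes, of which MAGEA4 and MAGEA10 were called, lie near each other. The genes around them, also tested and outside the families, are counted here at gene level, by the probe set with the highest mean and with p adjusted over 12123 genes, of which 3.65% were called lower and 5.06% higher, 8.71% in all. Around SPANXB1 and MAGEC2, the 10 nearest genes had a median difference of -0.13, from -0.36 (FGF13, a fibroblast growth factor homologue) to 0.23 (INTS6L), and limma called 0, with 1 at an unadjusted p under 0.05, a level that 27.1% of all tested genes reached in either direction. Around and between the MAGEA genes, 9 of 13 genes were below 0. So were 8 of 10 around SPANXB1 and MAGEC2 and 8 of 10 around each of XAGE2 and XAGE-4. The share of all tested genes below 0 was not counted. The median over all tested probe sets was itself below 0, at -0.0103, and over X-linked ones outside the families it was 0.04. The 13 genes near the MAGEA members had a median of -0.14, and 6 had an unadjusted p under 0.05. ZNF275, a zinc finger gene, was called lower there (-0.45, adjusted p = 0.0479). MTMR1 and HAUS7 differed by -0.42 each (adjusted p = 0.0508 and 0.0509), values close to those of MAGEA12 and MAGEA1, while CD99L2 differed by 0.40 (adjusted p = 0.0590). Around XAGE2 and XAGE-4 the medians were -0.06 and -0.09 over 10 genes each, with 0 called by limma in either region and 0 and 1 at an unadjusted p under 0.05. Whether a shift of the region took part in the MAGEA differences was not tested.

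**Figure D3:**
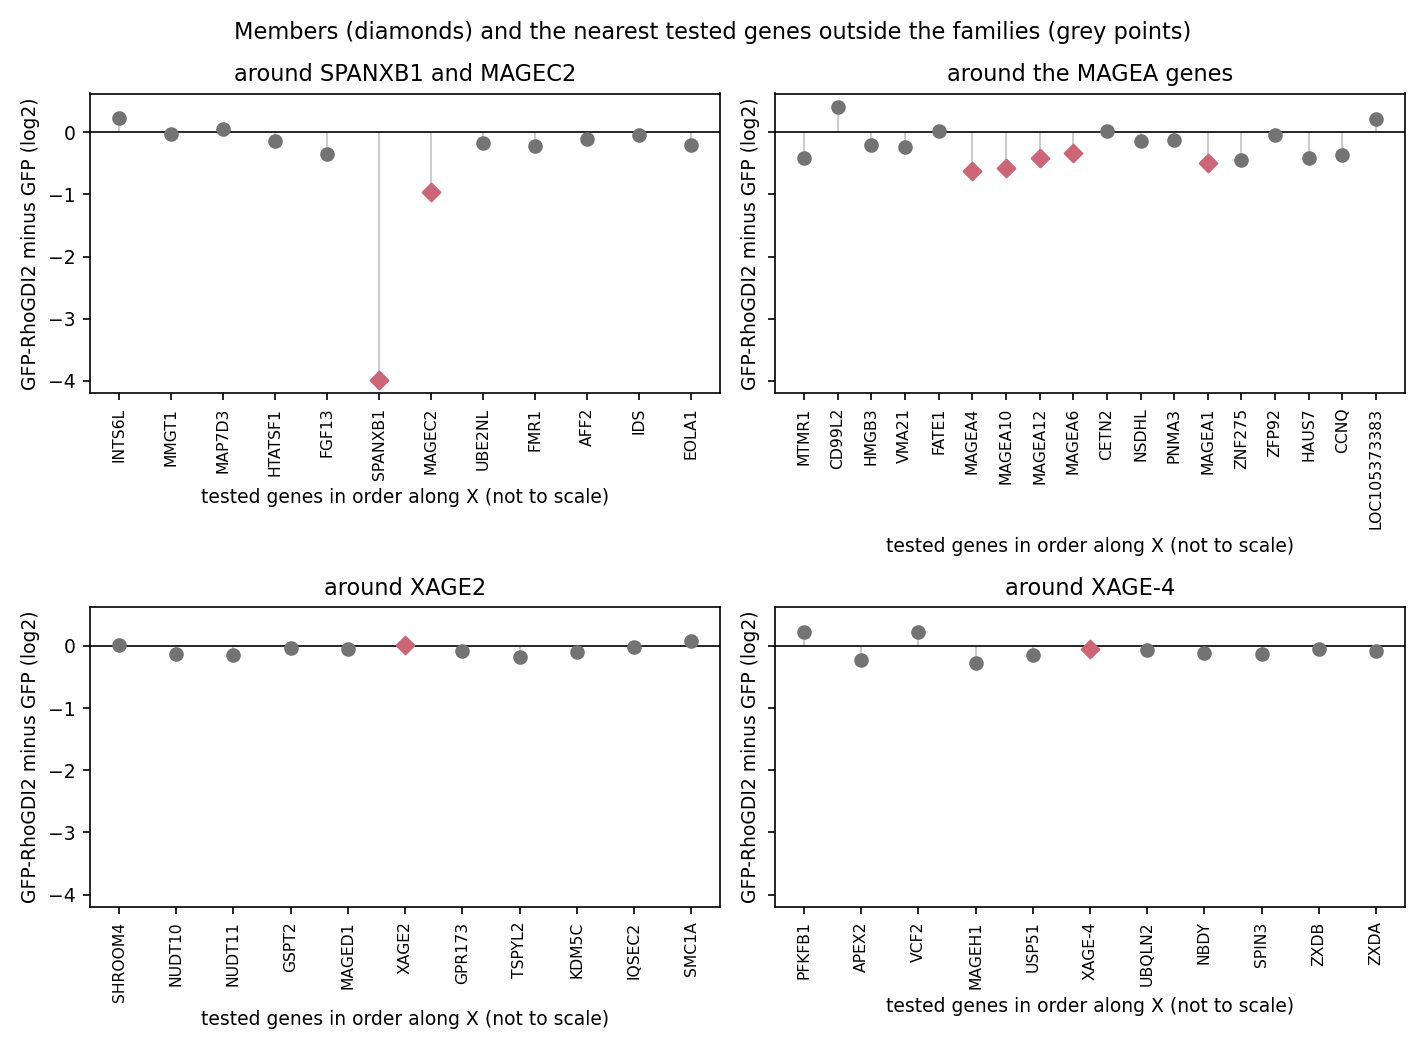
Difference between GFP-RhoGDI2 and GFP (log2) for tested genes in their order along the X chromosome, with diamonds for members and grey points for the nearest tested genes outside the families. SPANXB1 (-3.98) and MAGEC2 (-0.96) lie below all 10 genes around them. MAGEA4 (-0.62), MAGEA10 (-0.57) and MAGEA1 (-0.49) lie below all 13 genes around the MAGEA members, the lowest of which is ZNF275 (-0.45). MAGEA12 (-0.42) and MAGEA6 (-0.33) lie within the range of those genes, which reaches 0.40 (CD99L2).

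Of 621 tested X-linked probe sets outside the families, 3.22% were called lower and 9.02% higher, with a median difference of 0.04; on the other chromosomes 3.08% were lower and 4.86% higher.

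Genes related to these families, and the lists below, were counted in the same way, at gene level. Of all tested genes 3.65% fell, 5.06% rose and 27.1% had an unadjusted p under 0.05 in either direction. Among 55 further cancer-testis genes on the array, 21 were tested, 2 rose and 2 fell, with a median of 0.04. Of the 21, 10 had an unadjusted p under 0.05. SPAG4, a sperm-associated antigen gene, read 7.11 and 6.58 in GFP A and B and 8.25 and 7.61 in GFP-RhoGDI2 A and B, a rise of 1.09 (adjusted p = 0.00322). The histone demethylase gene KDM5B rose by 0.53 (adjusted p = 0.0273), the cell surface antigen gene LY6K fell by 0.68 (0.0177) and ODF2, a gene of sperm outer dense fibres, fell by 0.52 (0.0302). The called genes of this list thus went both ways.

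Of 9 further MAGE-domain genes on the array, which are widely expressed, 6 were tested and 0 called, with 1 at an unadjusted p under 0.05. Among the 6 tested genes the largest differences were those of MAGEE1 (-0.35, adjusted p = 0.194), MAGEH1 (-0.28, 0.155), NSMCE3 (0.21, 0.212) and MAGEF1 (0.14, 0.380). Among 15 tested genes for partners and targets of MAGE proteins 0 rose and 1 fell, with a median of -0.11, and 5 had an unadjusted p under 0.05. USP7, a deubiquitinase found with MAGE and TRIM proteins, read 10.59 and 10.33 in GFP A and B and 10.13 and 9.88 in GFP-RhoGDI2 A and B, a fall of 0.45 (adjusted p = 0.0409). TRIM27, a MAGE-bound ligase, differed by -0.33 (adjusted p = 0.0859), CCNE1 by -0.38 (0.0638) and KLHL12 by -0.38 (0.0811).

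None of the 58 tested genes of DNA methylation and chromatin repression was called by limma, and their median was -0.03. Of them 13 had an unadjusted p under 0.05, where 27.1% of all tested genes did. TET1, on this list but with a mean under the filter, read 4.07 and 3.93 in GFP A and B. In GFP-RhoGDI2 A and B it read 4.71 and 4.59. Its difference of 0.65 was called by limma over all probe sets without a filter (adjusted p = 0.0282). The transcription factor gene ETS2 differed by 0.44 (adjusted p = 0.0502), the methyl-CpG binding genes ZBTB4 and ZBTB38 by 0.37 and 0.36 (0.0918 and 0.0782) and the acetyltransferase gene KAT2B by 0.37 (0.0718).

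Of the germ cell markers, 5 of 21 on the array were tested and 0 called, with 0 at an unadjusted p under 0.05, and DDX4 (mean 3.09) and DAZL (2.92), which define germ cells, were under the filter. Among the 5 tested genes the largest differences were TNP1 (0.12), DND1 (0.10), PRM1 (-0.09) and NANOS3 (0.05). The summed level of the 21 genes on the linear scale was 503 and 502 in the GFP line against 501 and 517 in the GFP-RhoGDI2 line. Of 15 blood and endothelial markers, 3 were tested, HBB (-0.09), CD79A (0.08) and PECAM1 (-0.07), with 0 called and 0 at an unadjusted p under 0.05; their 15 levels summed to 286 and 292 on the GFP arrays and 284 and 280 on the GFP-RhoGDI2 arrays, and PTPRC, which marks all leukocytes, was under the filter (3.27). Among 20 epithelial and urothelial markers 6 reached the filter; KRT8 fell by 1.23 (adjusted p = 0.00213) and KRT18 by 0.59 (0.0192), PPARG rose by 1.27 (0.0027) from GFP levels under the filter, and GATA3 differed by -0.20 (0.430). PPARG passed the filter only through its GFP-RhoGDI2 arrays, so it could only come out higher. The 20 levels of the list summed to 13616 on each GFP array, and to 8892 and 9066 on the GFP-RhoGDI2 arrays. Most of each sum is KRT18, which read 13.60 and 13.61 in GFP A and B and 12.99 and 13.03 in GFP-RhoGDI2 A and B. The uroplakin genes UPK1A, UPK1B, UPK2 and UPK3A and CDH1, which define urothelium and epithelium, had means under the filter. Of 10 tested mesenchymal markers, 2 rose, SNAI2 by 2.03 (adjusted p = 0.00179) and CDH2 by 0.68 (0.0168), and FN1 and ZEB1 differed by 0.34 (0.285) and 0.19 (0.328). The 17 levels on the array summed to 17393 and 16032 on the GFP arrays and 19099 and 18568 on the GFP-RhoGDI2 arrays. Most of each sum is VIM, which read 13.85 and 13.71 in GFP A and B and 14.00 and 13.91 in GFP-RhoGDI2 A and B. VIM differed by 0.18 and was not called (adjusted p = 0.289). The part of these changes in cell identity markers in the result for the families was not tested.

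**Figure D4:**
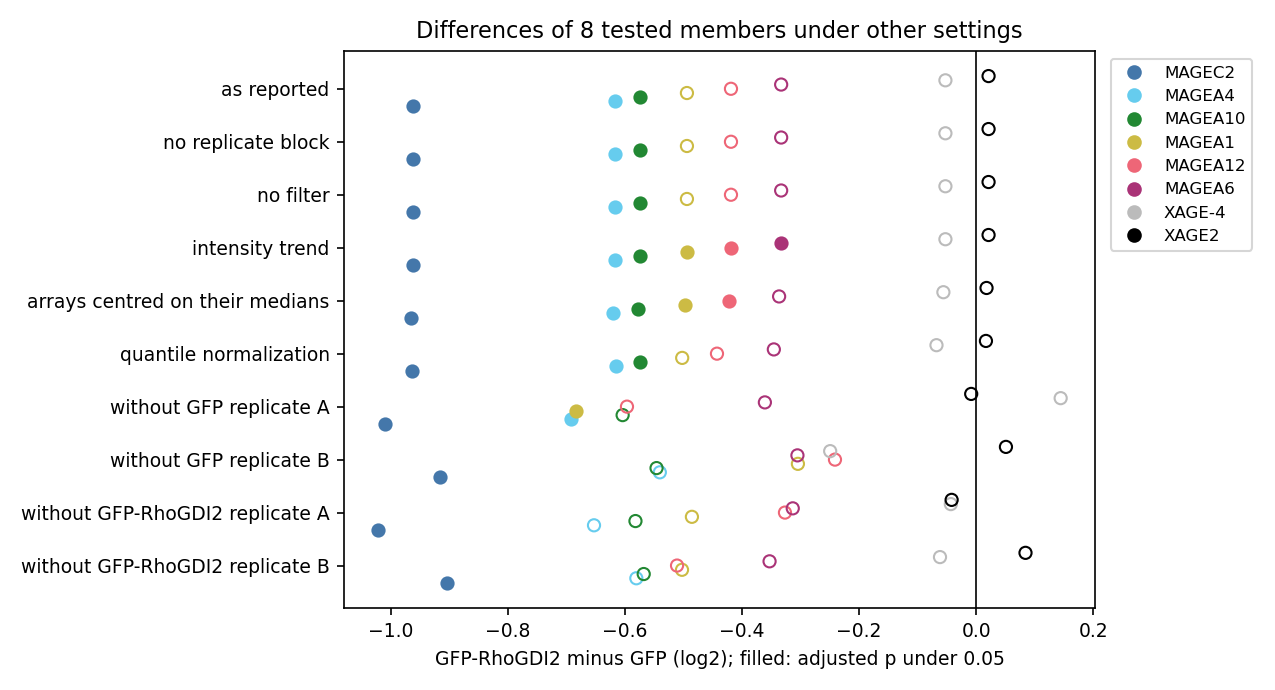
Difference between GFP-RhoGDI2 and GFP (log2) of 8 tested members under the reported setting and 9 others; filled points have an adjusted p under 0.05. MAGEC2 is filled in every setting drawn, MAGEA10 loses its fill with any array left out, MAGEA4 with any except GFP A, and XAGE-4 and XAGE2 lie between -0.25 and 0.14, unfilled; SPANXB1 (-3.98 as reported) is off this scale and not drawn.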

How the data were processed

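The deposited values are log2 expression per probe set from 4 Affymetrix HG-U133 Plus 2.0 arrays, hybridised with biotinylated cRNA from 6 µg of total RNA per the labels' protocols. For how the authors made them, the submitters' processing notes name RMA; which program ran it, and on which set of arrays, was not given in the sources used here. No further normalization was applied and no detection calls were used; the number of arrays limits the precision.

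Of 54675 probe sets, 62 controls were left out; GEO's platform table named 1 gene for 41091, several for 1801 and none for 11721. Differences were fitted in R 4.3.3 by lmFit and eBayes of limma 3.58.1 on the 27307 probe sets with a mean at or above 4.637, with Benjamini-Hochberg adjustment. Preparation was a block, since the labels pair the samples by it; over tested probe sets, the gap between preparations in GFP correlated with the gap in GFP-RhoGDI2 (r = 0.264). Simulated data were used to test the fit. The members and gene lists were chosen with earlier results of these data known. Protein sequences were not analysed here. Named are all tested member genes, members with any array over the filter, and up to 4 tested genes per further list with the largest difference. Other members under the filter were named to give the levels of their family, and PAGE4 and PAGE1 for their extreme differences. Genes that define a cell type, genes of the neighbourhood, TET1 and VIM were also named, chosen after their values were seen. Promoters were aligned with Biopython 1.88.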

Additional observations from a re-analysis of the deposited data

How the results depend on the processing

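The members called lower numbered 4 as reported, without the preparation block, without a filter, above the upper quartile, with robust moderation, with quantile normalization and with a floor; the block changed no call of a member. Above the upper quartile the 4 were all the members tested, MAGEA6 with them and SPANXB1 not tested. Centring gave 6 and the _at probe sets alone 3. With an intensity trend 7 were called, at adjusted p under 0.10 also 7, under 0.01 2 and at least 2-fold lower 1 (SPANXB1; 0.249% of all tested probe sets); leaving out 1 array without the block gave 2 to 4, with 4 without GFP A and 2 without any other. The gene-level counts were the same in each of these settings, and 7 where a gene was the mean over its tested probe sets. Each tested member has 1 such probe set, so the member values were unchanged. Only the pooled variance and the adjustment over genes differed. The median difference of the members ran from -0.604 to -0.305 with 1 array left out and was -0.0586 without a filter, where all 36 members count. SPANXB1 was called in each setting that tested it. MAGEC2 was called in each that tested it except the 2-fold rule, and was not tested with the _at probe sets alone. No called member changed sign. Of all 27307 tested probe sets, 821 were called lower as reported, 463 with no block, 2786 with the trend and 1522 with centring. Robust moderation, quantile normalization and the floor gave 784, 710 and 930. At adjusted p under 0.10 it was 1977, and under 0.01 it was 89. Above the upper quartile 1722 of 13654 were called lower, among _at probe sets 553 of 16775, and without a filter 470 of 54613. Counts in both directions follow. Over all probe sets, the count of 2085 became 1284 with no block, 3435 above the upper quartile, 5721 with a trend, 3395 with centring, 1340 without _s_at and _x_at, 447 at adjusted p under 0.01, 4264 under 0.10, 380 by the 2-fold rule, and 422 to 909 with 1 array left out. The causes were not tested. Low levels are limited by signal over background, which these values do not give.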

Other observations

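On the short arm of X, where the MAGEB genes lie and stayed under the filter, IL1RAPL1, a synaptic interleukin receptor-like gene, was the tested gene with the largest difference in the list of X-linked genes near the families. It read 4.23 and 4.05 in GFP A and B and 6.85 and 7.58 in GFP-RhoGDI2 A and B, a difference of 3.07 (limma, adjusted p = 0.0015), against the direction of SPANXB1 and with GFP levels under the filter. IL1RAPL1 passed the filter only through its GFP-RhoGDI2 arrays, and a gene that passes in this way can only come out higher. In that list 42 genes were tested, 1 was called higher and 1 lower, with a median of -0.05.

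SSX2IP, named for binding an SSX protein but no member of that family, had 6 probe sets, all tested, with differences from 0.00 to 0.34 and none called (lowest adjusted p = 0.098). The probe set assigned to SSX2B, which the symbol rule leaves out, read 3.40 and 3.43 in GFP A and B and 3.36 and 3.75 in GFP-RhoGDI2 A and B.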
